A study of Mus musculus with 9 samples.

Results

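A set of 461 cells was read out of droplet single-cell RNA sequencing of mouse bone marrow stem and progenitor cells. Each cell carried a unique molecular identifier (UMI, a tag that counts RNA molecules) for Procr, the endothelial protein C receptor that marks hematopoietic stem cells (HSCs), and at least 80 of every 10000 of its UMIs came from the immediate early genes Fos, Fosb, Jun and Egr1. The cells had no UMI of Flt3, the receptor of multipotent progenitors, and none of Mki67, a gene of dividing cells. Cells with at least 2 UMIs of Cd74 together with at least 2 of H2-Aa, H2-Ab1 and H2-Eb1, genes of antigen presentation, were left out. The same conditions without the immediate early level gave a stem cell gate of 3474 cells, so the members were 13.3% of the gate and 2.89% of the 15975 filtered cells of the series. The members were chosen by the measured levels of these genes in the same cells, so those levels, and every contrast of members with the rest of the gate, are given as descriptions without a test, apart from a fit at the end that compares their differences between conditions.

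The 9 libraries held LSK cells (lineage-negative, Sca-1-positive, Kit-positive bone marrow cells) sorted from C57BL/6 mice, with 3 libraries in each of the groups young, aged and CASIN. Young mice were 10 to 12 weeks old and the mice of the other groups were older than 80 weeks. CASIN is a small-molecule inhibitor of the GTPase Cdc42. The CASIN mice received it intraperitoneally at 25 mg per kg, dissolved in cyclodextrin, every 24 h for 4 days, and marrow was taken on day 5. The young and aged mice were injected with cyclodextrin alone, and all sorted cells were viably frozen and thawed before capture. Young 1, young 2, aged 1, CASIN 1 and CASIN 2 formed sequencing batch 1, and young 3, aged 2, aged 3 and CASIN 3 formed batch 2. The library totals ran from 19237354 to 42780953 UMIs.

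Immediate early genes are transcribed within minutes of a stimulus from promoters that need no new protein, and most of their mRNAs are short-lived. Fos and Jun family proteins pair to form the transcription factor AP-1, Egr1 is a zinc-finger transcription factor, and the same response turns on its own brakes, among them the phosphatase Dusp1 and the mRNA decay factor Zfp36. In HSCs these genes have been followed as a mark of the response to stress and of exit from rest, and they are also known to be induced when tissue is dissociated and cells are sorted.

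The batches differed in other ways. The batch 2 libraries held between 3682 and 4340 CPM (counts per 1000000 UMIs) of Xist, the RNA of the silenced X chromosome, and no UMI of the Y-linked genes Ddx3y and Eif2s3y. The batch 1 libraries held 0.0266 to 0.156 CPM of Xist, 43.3 to 65.5 CPM of Ddx3y and 75.5 to 81.9 CPM of Eif2s3y. The median share of mitochondrial UMIs over all barcodes was 2.73% to 4.61% in batch 1 and 13.02% to 15.5% in batch 2. Batch, these sex-linked transcripts and the mitochondrial share cannot be told apart in anything that follows. After filtering, libraries of the same batch shared between 0 and 23 cell barcodes per pair, and libraries of different batches between 0 and 3.

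The label was checked against other genes. In the 5 libraries of batch 1 the members held 329 to 432 CPM of Hlf, 111 to 237 CPM of Mecom and 21.5 to 37.2 CPM of Fgd5, all genes of HSC identity. They held 1 UMI in all of Cd48, a surface protein of progenitors that long-term HSCs lack. Markers of mature cells of other classes were sparse in the members, whereas genes of lineage priming, which HSCs and progenitors both express, were not. The 8 genes of granulocyte and monocyte priming summed to 684 to 1279 CPM in members and 616 to 1184 CPM in the rest, mostly from Prtn3 (median 1075 CPM in members). Those of megakaryocyte priming, Vwf among them, summed to 473 to 689 CPM in members and 424 to 661 CPM in the rest. Among 9 lymphocyte genes 6 had no UMI and the most abundant was Cd79b at 34.1 CPM, with summed levels of 81.7, 55.7, 36.8, 32.1 and 40.2 CPM in young 1, young 2, aged 1, CASIN 1 and CASIN 2. Among 10 genes of mature granulocytes and macrophages 5 had no UMI, the most abundant was S100a8 at 2.13 CPM, and the summed level was 0 to 7.35 CPM. Among 8 genes of stroma and endothelium 5 had no UMI and the most abundant was Kdr at 11.1 CPM, and among 9 erythroid genes 4 had no UMI and the most abundant was Hbb-bt at 29.8 CPM. Scrublet marked 2 of the 458 members of batch 1 as doublets (0.437%), against 4 of 1308 other gate cells (0.306%), and the marked cells were kept.

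Promoters of 3 genes from the response are shown because they hold letters that match elements known from immediate early promoters. Fos supplied most of the UMIs that defined the members. Dusp1 and Zfp36 took no part in the definition and were among the genes with higher levels in the members. Each run covers 250 bases before to 50 bases after the transcription start, 5′ to 3′ on the gene's strand, from RefSeq on GRCm38.p6. Capitals mark the short element TGACG of the cAMP response element in the first, the full element TGACGTCA and a separate short element in the second, and a CArG box, the core of the serum response element, in the third. The windows lie at chr12:85473640-85473939 on the plus strand for Fos, chr17:26508423-26508722 on the minus strand for Dusp1 and chr7:28379179-28379478 on the minus strand for Zfp36.
Fos: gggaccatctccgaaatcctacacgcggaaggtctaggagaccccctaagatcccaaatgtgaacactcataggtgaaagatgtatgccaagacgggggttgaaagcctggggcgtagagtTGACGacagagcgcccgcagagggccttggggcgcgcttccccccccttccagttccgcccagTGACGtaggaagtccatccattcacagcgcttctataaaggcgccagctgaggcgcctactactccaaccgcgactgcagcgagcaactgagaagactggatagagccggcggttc
Dusp1: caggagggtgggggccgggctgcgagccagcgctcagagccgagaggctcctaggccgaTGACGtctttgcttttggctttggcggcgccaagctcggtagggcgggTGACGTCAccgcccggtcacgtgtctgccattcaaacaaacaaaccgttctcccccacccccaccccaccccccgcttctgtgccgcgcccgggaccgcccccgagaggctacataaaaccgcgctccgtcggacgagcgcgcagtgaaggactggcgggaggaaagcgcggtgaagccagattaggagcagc
Zfp36: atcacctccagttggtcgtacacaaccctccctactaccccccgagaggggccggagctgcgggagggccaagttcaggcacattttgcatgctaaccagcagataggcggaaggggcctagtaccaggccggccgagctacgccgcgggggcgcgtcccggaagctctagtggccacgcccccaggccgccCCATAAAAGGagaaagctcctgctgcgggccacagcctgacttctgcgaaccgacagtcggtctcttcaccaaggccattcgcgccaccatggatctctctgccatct

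Members were unevenly spread over the libraries, and batch 1 held 458 of the 461. In young 1, 24 of 238 gate cells were members (10.1%, 95% Wilson interval 6.87% to 14.6%), and in young 2, 15 of 243 were (6.17%, 3.78% to 9.93%). In aged 1 the count was 175 of 638 (27.4%, 24.1% to 31.0%). In CASIN 1 it was 126 of 326 (38.7%, 33.5% to 44.0%) and in CASIN 2 it was 118 of 321 (36.8%, 31.7% to 42.2%). Within batch 1 both young libraries thus lay below the aged library, and the aged library below both CASIN libraries, without overlap of the intervals. Batch 2 held 2 of 347 gate cells in aged 2 (0.576%, 0.158% to 2.08%) and 1 of 825 in CASIN 3 (0.121%, 0.0214% to 0.683%). Young 3 held 0 of 190, which allows a share of up to 1.58% at a limit of 3 cells, and aged 3 held 0 of 346, which allows up to 0.867%. The upper Wilson limits for these libraries, as plotted, were 1.98% and 1.10%. The intervals and limits cover counting error only.

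Over all 9 libraries the share of members was 5.42% ± 5.08 in young, 9.34% ± 15.7 in aged and 25.2% ± 21.7 in CASIN (mean ± SD, n = 3 each). Two-sided exact permutation tests of these shares take no account of batch, and the smallest p they allow for 3 against 3 is 0.1, so they could not reach 0.05 whatever the shares. Aged minus young was 3.92 percentage points (exact permutation p = 0.9) and turned to −5.13 without aged 1. CASIN minus aged was 15.8 (p = 0.3) and CASIN minus young 19.8 (p = 0.3, exact permutation tests). Adjusted over the 4 comparisons of shares by the Benjamini-Hochberg method, the permutation p-values were 0.9, 0.4 and 0.4. Within batch 1 the same differences were 19.3, 10.3 and 29.6 points, and within batch 2 they were 0.288, −0.167 and 0.121 points. The within-batch 1 comparison of CASIN with young, at 2 libraries against 2, gave an exact permutation p of 0.333, the smallest it allows. Between the batches the share was 23.8% ± 15.0 (SD, n = 5) against 0.174% ± 0.274 (SD, n = 4), a difference of 23.6 points with a two-sided exact permutation p of 0.0159, the smallest possible, and 0.0635 after adjustment. The labels do not say that the libraries of a group came from separate animals, so p-values measure the spread between these libraries. The plot of shares by library shows the split.

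**Figure D1:**
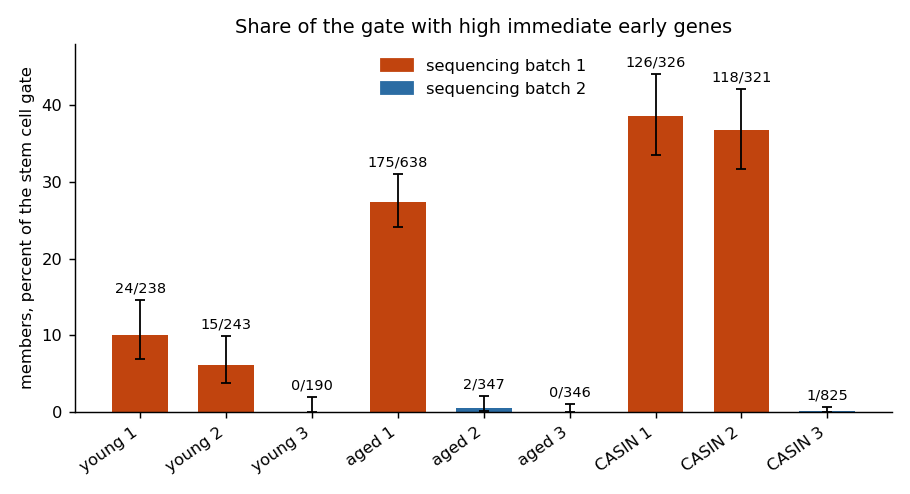
Share of the stem cell gate that was a member, in percent, for each of the 9 libraries, with 95% Wilson intervals and with member and gate counts above the bars. Batch 1 libraries sit between 6.17% and 38.7% and batch 2 libraries at or below 0.576%.

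The split lay in the whole distribution and not in its upper tail alone. The median level of the 4 genes over all gate cells was 27.7 and 25.0 per 10000 UMIs in young 1 and young 2, 54.6 in aged 1, and 71.6 and 66.6 in CASIN 1 and CASIN 2. In batch 2 it was 1.02 in young 3, 2.39 and 2.16 in aged 2 and aged 3, and 1.06 in CASIN 3. Cells with Flt3 and without Procr, the multipotent progenitor side of the sort, had medians of 18.5 to 23.5 in batch 1 and 1.73 to 7.62 in batch 2. Within batch 1 the Flt3 cells were close to each other, at 18.5 and 21.4 per 10000 in young 1 and young 2, 19.3 in aged 1, and 23.5 and 22.8 in CASIN 1 and CASIN 2, whereas the gate cells of the groups were far apart. Of the barcodes that the mitochondrial limit of 10% removed, 59 of 143 gate barcodes of batch 1 (41.3%) and 5 of 2786 of batch 2 (0.179%) met the level.

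Fos dominated the signal inside the members. It gave 56.9% of the UMIs of the 4 genes, Jun 19.1%, Egr1 13.8% and Fosb 10.2%, and it was the leading gene in 432 of 461 cells, Jun leading in 27. All 4 genes were detected together in 451 members (97.8%). The level ran from 80.2 to 275 per 10000 with a median of 104. The cut fell in a continuous range. The 74 cells at 75 to 80 per 10000 had a median of 46 Fos UMIs, and the 64 cells at 80 to 85 also had 46. Egr1 gave 7.43% and 7.73% of the 4-gene UMIs in young 1 and young 2, against 14.9% in aged 1 and 13.3% and 14.7% in CASIN 1 and CASIN 2. The single member of CASIN 3 was unlike the others, with 50.8% of these UMIs from Egr1 and 1.59% from Fos.

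Members were slightly shallower than the rest of the gate in batch 1. Their median was 9429 UMIs and 2769 genes, against 10758 UMIs and 3002 genes in the rest. The median mitochondrial share was 3.93% against 3.44% and the ribosomal protein share 38.0% against 38.9%. Unless another set is named, further values are UMIs summed over the members, or over the rest, of each batch 1 library and scaled to CPM. Summed values cannot tell fewer expressing cells from less RNA per cell. The members' sums were 232463 and 143630 UMIs in the young libraries, 1877105 in aged 1, and 1496932 and 994401 in CASIN 1 and CASIN 2, so young values are the least precise. Vwf, the von Willebrand factor of platelet-biased HSCs, had 21.5, 0, 74.6, 76.2 and 63.4 CPM in members of young 1, young 2, aged 1, CASIN 1 and CASIN 2, and 8.14, 12.4, 76.4, 83.0 and 66.6 CPM in the rest. The median log2 ratio was −0.07 with members higher in 1 of 5 libraries.

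Among 7769 genes outside the definition with a mean of at least 10 CPM, 54 (0.695%) were higher in members than in the rest of the gate and 92 (1.18%) were lower, by a median of at least 1.5-fold and with the same sign in all 5 libraries. The median log2 ratio of all these genes was −0.02. With each library left out, the count of higher genes ran from 60 to 126 and that of lower genes from 77 to 171. The same sign was then required only in the libraries that remained, so these counts follow a looser rule than the 54 and 92. The counts and ratios below are descriptions of how the cut divided the gate.

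The genes that were higher in members belonged in part to the same response. Klf4, a zinc-finger transcription factor, had 219, 132, 217, 226 and 196 CPM in members of young 1, young 2, aged 1, CASIN 1 and CASIN 2, and 51.1, 34.6, 66.9, 85.6 and 55.9 CPM in the rest (median log2 ratio 1.79). Members of every library exceeded the rest of every library. Jund, a broadly expressed AP-1 subunit, had 3523, 2938, 3433, 3191 and 3181 CPM in members against 1130, 1141, 1777, 1933 and 1838 CPM (0.95), and the ranges did not overlap. Members were nearly level with each other for Jund while the rest of the gate was lower in the young libraries.

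Some brakes on the response were also higher in members. Dusp1, which dephosphorylates MAP kinases, had 903, 606, 587, 691 and 568 CPM in members against 325, 263, 277, 324 and 380 CPM in the rest (median log2 ratio 1.09). Zfp36, which marks AU-rich mRNAs for decay, had 658, 710, 939, 799 and 944 CPM against 263, 292, 529, 545 and 571 CPM (0.83). Both genes kept members and rest apart in every library. Of 21 measured feedback inhibitors 3 were higher by the rule (Dusp1, Zfp36 and the small GTPase Rhob, 0.95), none was lower, and the list's median was 0.25.

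Other transcription factors of the response behaved unevenly. Of 13 measured, 3 were higher, namely Klf4, Klf2 (0.86) and Klf6 (0.73), and the median was 0.24. The orphan nuclear receptors Nr4a1 and Nr4a2 had median log2 ratios of 0.16 and 0.25, and Ier2 had 0.08. Of 8 further AP-1 genes only Jund met the rule. Junb had 0.57 and was higher in all 5 libraries, and Atf3 had 1.13 but was higher in 4 of 5. The level of the 4 defining genes was thus accompanied by Klf4, Dusp1 and Jund more than by Nr4a1, Ier2 or the decay-regulating Btg2 (0.25).

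Genes of other stress programs met the rule at a share near that of all genes (0.695% higher and 1.18% lower), so the counts say nothing particular about these programs. No gene of the NF-kB list met the rule in either direction (10 measured, median 0.11). The same was true of 11 cytosolic heat shock chaperones (median −0.15), among which Dnajb1 had 0.57 and the constitutive chaperone Hspa8 had −0.25, each with 1 sign in all 5 libraries. Of 13 genes of endoplasmic reticulum stress only Sdf2l1 met the rule, and it was lower (list median −0.10). Interferon response genes (7 measured), p53 targets (6) and TGF-beta response genes (10) had no gene past the rule.

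Of 20 measured genes of HSC identity, Meg3 and Fgd5 met the rule, 11 were above 0 in all 5 libraries, and the median was 0.28. Meg3, a long noncoding RNA of the imprinted Dlk1 locus, had 90.3, 62.7, 98.0, 114 and 78.4 CPM in members against 29.97, 28.8, 75.4, 78.0 and 38.1 CPM (median log2 ratio 1.02). The young 2 members lay below the rest of aged 1 and CASIN 1, so the ratio held within libraries and not across them. Hlf had 0.19 and Mecom 0.26, the latter higher in 4 of 5 libraries. Cdkn1c, the cyclin-dependent kinase inhibitor p57 of resting HSCs, had 0.49, short of the rule, and was higher in all 5. Cdkn1a, of the same list of quiescence and cell cycle entry, had −0.27 and was higher in 1 of 5. The median of that list was 0.11. Other genes with the largest ratios were the adhesion receptor Adgre5 (1.23), Wfdc2 (1.16), the pseudokinase Trib2 (1.12) and the kinase Dyrk3 (0.92). The uncharacterised loci Gm26802 (1.26) and Gm26532 (0.89) were among them too. Their lowest ratios in a library were 0.54, 0.05, 0.37, 0.05, 0.40 and 0.31 in the same order. Trib2 and Gm26802 were scarce, with medians of 18.7 and 14.0 CPM in members.

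Genes of progenitors and of division were among those lower in members. Cd48 had 1 UMI in the members of batch 1, in CASIN 2, and 355 UMIs in the rest. The rest of the gate held 55.9, 44.0, 6.08, 11.5 and 15.8 CPM of Cd48 in the 5 libraries. Plac8, a gene of early myeloid and lymphoid commitment, had 12.9, 69.6, 12.3, 10.7 and 38.2 CPM in members against 312, 355, 37.5, 88.3 and 149 CPM (median log2 ratio −2.33). For both genes the young rest was highest, and members lay below the rest of their own library in every case.

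Cd52 (−2.84), Nkg7 (−2.78), Ccl3 (−2.52), Tespa1 (−2.15) and the signalling adaptor Tyrobp (−1.63) followed the same direction, as did the protease inhibitor Serpinb1a (−1.42). The uracil glycosylase Ung (−1.82), the helicase Hells (−1.29) and the replication helicase subunit Mcm5 (−1.33) act in DNA replication and repair. Of 11 measured genes of replication and mitosis 4 were lower (Mcm3, Mcm4, Mcm5 and Mcm6), none was higher, and the median was −0.64. Cdk6, the kinase that sets the speed of HSC exit from rest, had 90.3, 62.7, 75.1, 80.8 and 106 CPM in members against 166, 166, 113, 148 and 143 CPM in the rest (−0.87). Cd34, which marks HSCs with shorter repopulating ability in the mouse, had 86.0, 153, 41.0, 46.1 and 46.3 CPM against 289, 266, 60.8, 107 and 102 CPM (−1.12). Cdk6 and Cd34 were the quiescence and cell cycle entry genes, of 11 measured, that met the rule.

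The plot of ratios by library places these genes beside a comparison in batch 2. There, too few members existed, so the 25% of gate cells with the highest level of the 4 genes in each library were set against the other cells of that library. The lowest level in that upper set was 42.5 to 95.7 per 10000 in batch 1 and 2.08 to 5.23 in batch 2. All 12 of the lowest genes of batch 1 had a median above 0 in batch 2, and 9 of 12 were above 0 in all 4 libraries, beside 12.8% of all genes. Over all 92 lower genes, 78 (84.8%) had a median above 0 in batch 2, beside 51.2% of all genes, and 0 were below 0 in all 4 libraries. Plac8 had 1.31 in batch 2 and −1.71 in batch 1, Cd34 0.61 and −0.85, Cdk6 0.80 and −0.82, and Cd48 0.82 and −3.23. Of the 54 higher genes, 23 (42.6%) had a median above 0 in batch 2. Of the highest genes named here, Jund and Rhob were above 0 in all 4 libraries, and Wfdc2 and Gm26532 were below 0 in all 4. Dusp1 had 1.33 and Klf2 2.08, whereas Vwf had −1.88 and Cdkn1c −1.24. Of the lowest genes, Hells and Ccl3 were above 0 in 2 of the 4 libraries of batch 2 and Ung in 3. The difference in sign between the batches, and the part that the gap in level between the upper sets has in it, was not tested.

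**Figure D2:**
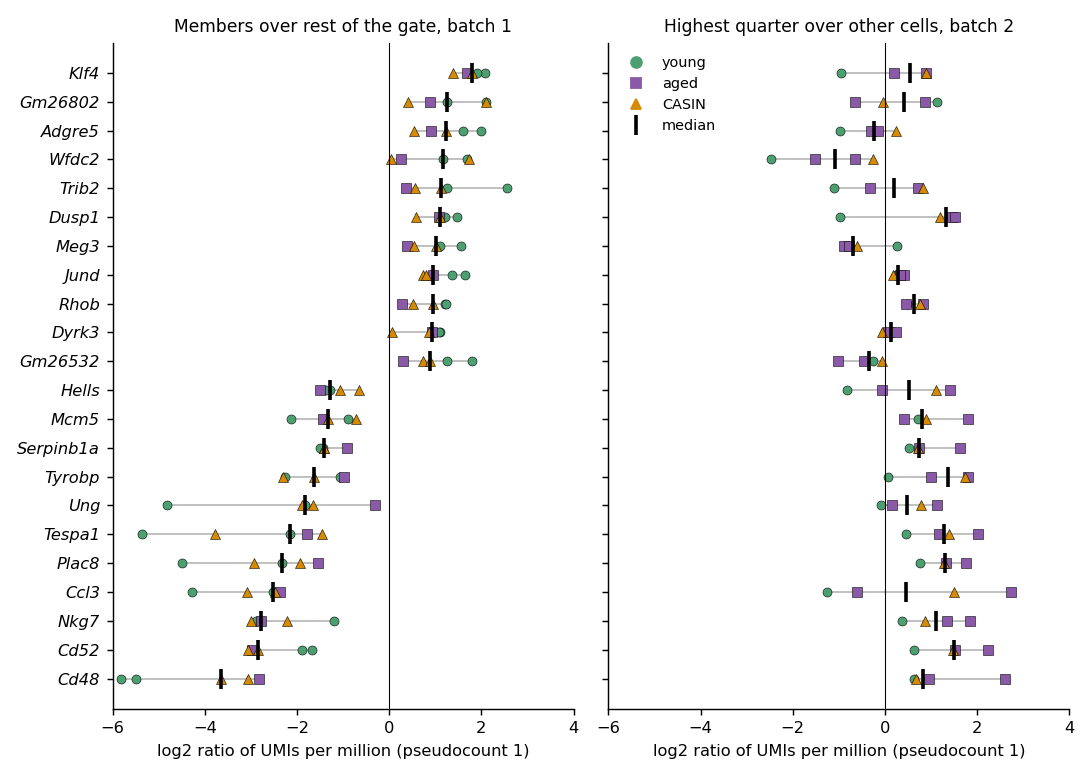
Log2 ratios of CPM (pseudocount 1), 1 point per library with the median as a bar, for 11 of the highest and 11 of the lowest genes. The left panel sets members against the rest of the gate in batch 1, and the right panel sets the upper 25% of gate cells against the others in batch 2, where all 11 lower genes have medians above 0.

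A graded view over batch 1 used the same 4-gene level in the same cells, and the members were its 3 highest ranges. Its order is therefore tied to the cut, and the values are a description. The gate cells were divided into 7 ranges of the 4-gene level, from below 20 to 120 and above, with 294, 396, 335, 283, 199, 122 and 137 cells. The median over libraries of Klf4 went from 19.4 CPM in the lowest range to 198 CPM at 80 to 100 and 225 CPM in the highest. Jund went from 738 to 3635 CPM, Dusp1 from 143 to 814 CPM and Meg3 from 14.1 to 108 CPM. Mecom went from 112 to 204 CPM. In the other direction, Cd34 went from 221 to 73.0 CPM, Cdk6 from 220 to 73.2 CPM and Plac8 from 404 to 12.1 CPM. Cd48 went from 49.96 CPM to 0 CPM in the 3 ranges above 80. Most of the drop in Cd48 lay below the cut, since the median was 4.63 CPM at 40 to 60 and 2.91 CPM at 60 to 80. The upper ranges rested on few young cells: the library with the fewest held 6, 3 and 5 cells in the 3 highest ranges.

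**Figure D3:**
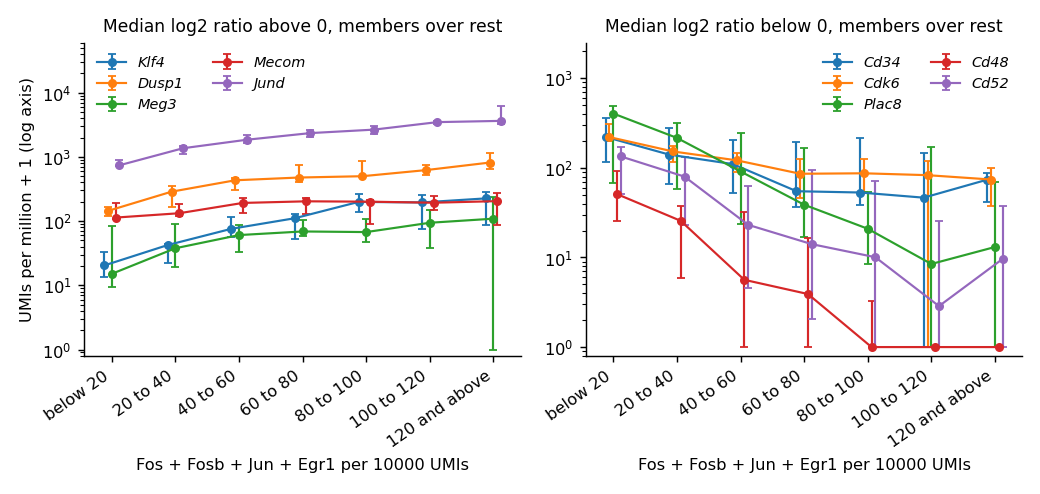
CPM plus 1 on a log axis for 10 genes, over ranges of the summed level of Fos, Fosb, Jun and Egr1 in batch 1. Points are medians over the 5 libraries and bars run from the lowest to the highest library; Klf4 goes from 19.4 to 225 and Plac8 from 404 to 12.1 between the end ranges.

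The batch contrast was also measured over all cells of the gate, members and rest together, in all 9 libraries with group and batch as terms (edgeR quasi-likelihood test, Benjamini-Hochberg adjustment). At an adjusted p of 0.05, 7777 of 11051 genes (70.4%) differed between batches, with 3931 higher in batch 1 (35.6%) and 3846 lower (34.8%), so a call by itself says little about any one gene. Of the defining genes, Fos had 2021 and 1844 CPM in young 1 and young 2, 3271 CPM in aged 1 and 3981 and 3482 CPM in CASIN 1 and CASIN 2. The 4 libraries of batch 2 held 5.63, 49.2, 29.0 and 10.6 CPM. Fos was thus lower in every batch 2 library than in any batch 1 library, with a log2 difference of 7.55, and Egr1 followed with 5.24, Jun with 3.02 and Fosb with 2.98.

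Not all immediate early genes followed Fos. Klf2, a quiescence-associated zinc-finger factor, was at 352, 347, 603, 736 and 897 CPM in young 1, young 2, aged 1, CASIN 1 and CASIN 2 of batch 1. In young 3, aged 2, aged 3 and CASIN 3 of batch 2 it was at 3.75, 29.4, 29.0 and 17.3 CPM. The batches did not overlap (log2 5.20, edgeR adjusted p = 7.11e-10). Dusp1 had a log2 difference of 3.17 (1.35e-07), Ier2 2.08 (2.26e-08), Junb 1.79 (1.55e-06), Jund 1.37 (1.69e-08) and Zfp36 1.06 (0.000166), all edgeR adjusted p-values. Nr4a1 had 121 and 202 CPM in young 1 and young 2, 493 CPM in aged 1, and 366 and 385 CPM in CASIN 1 and CASIN 2, beside 186, 1002, 363 and 361 CPM in young 3, aged 2, aged 3 and CASIN 3. Its batches overlapped (log2 −0.15, edgeR adjusted p = 0.596), as did those of Klf4 (0.19, adjusted p = 0.511) and Nr4a2 (−0.44, adjusted p = 0.0794). Fosl2 and Nr4a3 went the other way, at −2.48 (edgeR adjusted p = 6.23e-08) and −3.86 (2.55e-08), and so did Atf3 at −1.18 (0.000246). The sign of the batch difference was not stable for Klf4, at −0.15 without CASIN 3 and −1.09 with the replicate block. Nor was it stable for Nr4a1, at 0.13 without aged 2. Only replicate 2 held libraries of both batches, so with the block the batch difference rests on aged 2 against young 2 and CASIN 2.

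**Figure D4:**
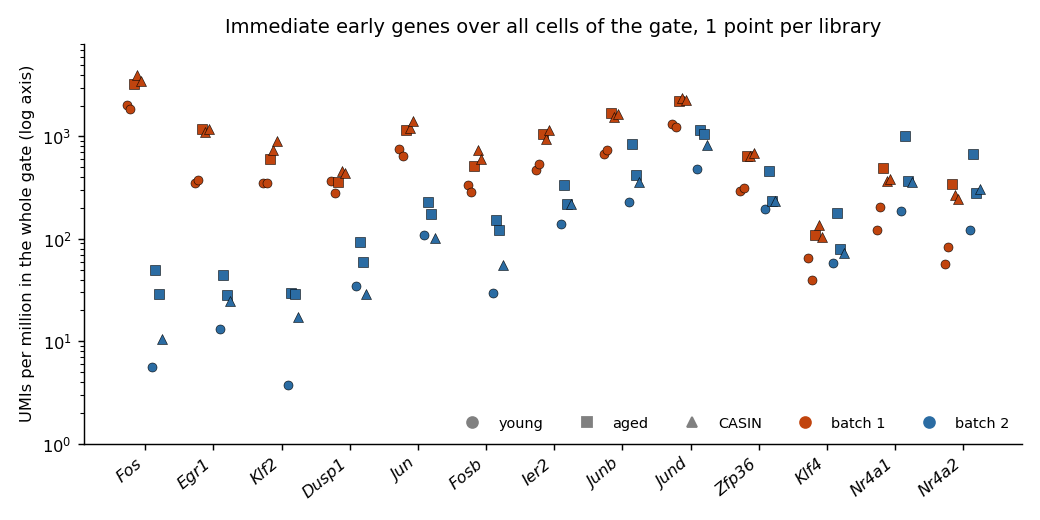
CPM on a log axis for 13 immediate early genes over all cells of the gate, 1 point per library. Fos lies between 1844 and 3981 in batch 1 and between 5.63 and 49.2 in batch 2, whereas Klf4, Nr4a1 and Nr4a2 overlap between the batches.

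To ask whether age or CASIN went with differences among the members themselves, members were summed per library and the 5 libraries of batch 1 were fitted (edgeR quasi-likelihood test, 9193 genes). Aged was a single library there, and its spread was taken to be like that of the other groups. The comparisons with young share the young libraries, and those with aged share the aged library. Between aged and young members 144 genes (1.57%) differed, 104 higher (1.13%) and 40 lower (0.435%) in aged. Between CASIN and young members 174 (1.89%) differed, 129 higher (1.4%) and 45 lower (0.49%). Between CASIN and aged members 6 (0.0653%) differed, 3 in each direction (0.0326%). DESeq2 called 29, 50 and 0 genes in the order given. Without CASIN 1 no gene passed in edgeR in any of the 3 comparisons, and without young 1 the counts were 6, 5 and 0. CASIN 1 does not enter the difference between aged and young, so its removal there acts on the spread, the normalization and the genes tested. Nr4a2, described below, had an aged over young difference of 2.19 both with and without CASIN 1 (edgeR adjusted p = 7.39e-14 and 0.705).

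Genes linked to HSC aging were higher in the members of aged 1 than in those of the young libraries. With 1 aged library, age and that library cannot be told apart, and the p-values hold no spread between aged libraries. Of 18 genes in that list 16 passed, all higher, with a median log2 difference of 2.40 beside 0.02 for all genes. In the rest of the gate 18 of 18 passed, with a median of 3.07, so the members were not alone in this. Of all 10929 genes tested in the rest, 744 were higher and 464 lower in aged than in young. The list was compiled with results of these data known, and it is not independent evidence of direction. At a level of 120 per 10000, 7 of 17 tested genes of the list passed in members. Without CASIN 1 none of the list passed, without young 1 it was 2, without young 2 it was 11, and with DESeq2 it was 7. Gpr183, an oxysterol receptor, had 0 and 0 CPM in young members, 119 CPM in aged 1, and 79.5 and 110 CPM in CASIN 1 and CASIN 2. Against a floor of 3 UMIs over both young libraries it was at least 14.9-fold higher in aged (edgeR adjusted p = 1.83e-14) and at least 11.5-fold higher in CASIN (5.77e-12). Young members held none of Mt2, a metallothionein, either, which was at 69.3 CPM in aged 1 and 68.8 and 40.2 CPM in CASIN 1 and CASIN 2, at least 8.68-fold and 7.20-fold higher.

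Other members of the list were detected in young cells. Vwf, with the levels given above, had a log2 difference of 2.58 ± 0.52 (SE) between aged and young (edgeR adjusted p = 0.000154). Nupr1, a stress-responsive chromatin protein named after its values were seen, had 64.5, 20.9, 471, 434 and 553 CPM (3.41 ± 0.29, edgeR adjusted p = 1.53e-28). For each of these genes both young libraries were below every aged and CASIN library. In CASIN against young 15 of the 18 genes passed, all higher (median 2.42). The count was 9 with DESeq2, 11 without young 2, 6 at a level of 120 per 10000, 2 without young 1 and 0 without CASIN 1, and in the rest of the gate it was 18 (median 2.96). Of all 10929 genes tested in the rest of the gate, 806 were higher and 537 lower in CASIN than in young. In CASIN against aged 0 of 18 passed in the edgeR test, the median was −0.03, and Vwf had −0.13 (adjusted p = 0.999).

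Outside the list, the prostaglandin synthase gene Ptgs2 had 0, 0, 40.5, 64.8 and 66.4 CPM, at least 5.08-fold higher in aged and 8.20-fold in CASIN than in young. Against the same floor, the glutathione transferase gene Gstm2 was at least 5.08-fold higher in aged and the nuclear receptor gene Rorb at least 4.54-fold higher. The noncoding locus 1200007C13Rik was at least 5.21-fold higher in aged. Cd34 fell by 1.36 on the log2 scale in aged members (SE 0.33, edgeR adjusted p = 0.00454) and by 1.24 in CASIN members (adjusted p = 0.00473), with its per-library values given above.

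Several immediate early genes differed between the aged library and the young libraries of 24 and 15 members, among cells that all met the same minimum level of Fos, Fosb, Jun and Egr1. Of 13 other transcription factors of the response, 5 were higher in aged than in young members (Egr3, Hes1, Ier2, Nr4a1 and Nr4a2) and Klf6 was lower, with a list median of 0.84. With DESeq2 it was 4 higher and 0 lower, and without young 1 or without CASIN 1 none passed. Nr4a2 had 81.7 and 104 CPM in young 1 and young 2, 386 CPM in aged 1, and 281 and 277 CPM in CASIN 1 and CASIN 2 (aged over young 2.19 ± 0.26 SE, edgeR adjusted p = 7.39e-14). Nr4a1 had 125, 258, 459, 397 and 414 CPM in the same order (1.46 ± 0.22, edgeR adjusted p = 2.91e-08). Ier2 had 658, 411, 1024, 974 and 1259 CPM (1.00 ± 0.17, edgeR adjusted p = 1.57e-06). In all 3 genes the young libraries lay below the others. The shared minimum did not match the defining genes singly. Egr1 had 813 and 829 CPM in young members and 1624 CPM in aged 1, and Fos 7270 and 6781 CPM against 6113 CPM. In the rest of the gate the median of this list was 1.15, so the members were not alone in this. For the further AP-1 genes below, the median was 0.29 in members and 0.69 in the rest. For the feedback inhibitors it was 0.53 and 0.47.

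Of 8 further AP-1 genes only Junb passed. It was at 1161 and 1218 CPM in the young libraries, at 2218 CPM in aged 1 and at 1927 and 2049 CPM in the CASIN libraries (1.00 ± 0.15 SE, edgeR adjusted p = 7.74e-09). Jund, which was level among members, had 0.18 (edgeR adjusted p = 0.803), and Klf4 had 0.34 (adjusted p = 0.788). Of 21 feedback inhibitors Btg2, Gadd45g, Ier3 and Sgk1 were higher in aged members, and Dusp2, Dusp6 and Rhob were lower. The counts of higher and lower inhibitors were 3 and 0 with DESeq2, 4 and 0 without young 2, 4 and 1 without CASIN 2, 6 and 1 with the replicate block, and 0 and 0 without young 1 or without CASIN 1. Btg2, an antiproliferative regulator of mRNA decay, had 68.8, 181, 411, 298 and 373 CPM (1.95 ± 0.25, edgeR adjusted p = 3.22e-12). Klf6 had 637, 543, 291, 367 and 516 CPM and fell by 0.93 in aged members (SE 0.19, edgeR adjusted p = 0.000239). The CASIN 2 value of Klf6 was close to the young ones, and CASIN over aged was 0.54 (edgeR adjusted p = 0.654).

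In lists of this size a count of 0 is close to the share of all genes that passed between aged and young members (1.57%). The 12 NF-kB genes and the 13 endoplasmic reticulum stress genes had no call there. Of 11 heat shock chaperones Dnaja1 was lower in aged members. Hspa8 had 1751, 1358, 1076, 1011 and 964 CPM, and fell by 0.62 between young and CASIN (edgeR adjusted p = 0.000407). Of 20 HSC identity genes 4 were higher in aged members (Gata2, Mllt3, Nupr1 and Sult1a1), and Mecom had 0.64 (edgeR adjusted p = 0.275). Among 11 TGF-beta response genes Id2 and Id3 were higher, and none of the replication, interferon and p53 lists passed. Cd52 of the lymphoid list and Nkg7 of the lymphocyte list were lower, and Prtn3, the granulocyte protease gene, was higher. The median of the replication list was −0.32 in members and −1.05 in the rest of the gate. That of the HSC identity list was 0.48 and 1.15. Nupr1 and Sult1a1 belong to the list of HSC aging as well.

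CASIN and aged members differed in 6 genes in edgeR, whereas DESeq2 called 0 genes (9 below 0.05 before adjustment) and edgeR called 1 gene without CASIN 2 and 0 without CASIN 1 or without young 1. Tsc22d3, the glucocorticoid-induced leucine zipper gene, was at 309.7 and 244 CPM in the young libraries, at 118 CPM in aged 1, and at 199.7 and 432 CPM in the CASIN libraries (CASIN over aged 1.35 ± 0.20 SE, edgeR adjusted p = 3.06e-08). Both CASIN libraries were above the aged one, and the young ones were too. With 1 aged library, a difference of CASIN from aged and a trait of that library cannot be told apart. The rest of the gate had a CASIN over aged difference of 1.19 in Tsc22d3 (edgeR adjusted p = 0.335), and the difference between members and rest was 0.17 (adjusted p = 1). Over the whole gate the value was 0.61 (edgeR adjusted p = 0.99995), and within batch 2 it was 0.11. Igkc, an immunoglobulin light chain gene of B cells, had 4.30, 0, 1.60, 17.4 and 76.4 CPM. There were 102 UMIs in CASIN and 3 in aged, a ratio of 25.6 (8.52 to 126, exact counting interval). The interval pools the UMIs of both CASIN libraries and covers counting error only, with no spread between libraries. The B cell genes Cd79a, Cd79b and Ms4a1 belong to the lymphocyte list, whose summed levels were 36.8 CPM in the members of aged 1 and 32.1 and 40.2 CPM in those of CASIN, and 51.9 CPM in the rest of aged 1 and 89.5 and 85.4 CPM in the rest of CASIN 1 and CASIN 2. The rest of the gate had 1.85, 0, 5.27, 15.0 and 78.3 CPM of Igkc in the same libraries. Over the whole gate CASIN over aged was −1.28 (edgeR adjusted p = 0.99995), and within batch 2 it was −4.68, with 173 and 5879 CPM in aged 2 and aged 3 against 117 CPM in CASIN 3. Igkc thus had the same order of libraries in the rest of the gate as in members among aged 1, CASIN 1 and CASIN 2, and the opposite direction in batch 2. The part of lymphocyte RNA in it was not tested. Gm4951 was the third higher gene (1.94). Gm45509 (−3.61), Gm45184 (−3.01) and the pseudogene Olfr1369-ps1 (−1.52) were lower. Cdc42 itself, the target of CASIN, had 318, 397, 377, 387 and 406 CPM, and CASIN over aged was 0.02 ± 0.17 (edgeR adjusted p = 0.999).

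**Figure D5:**
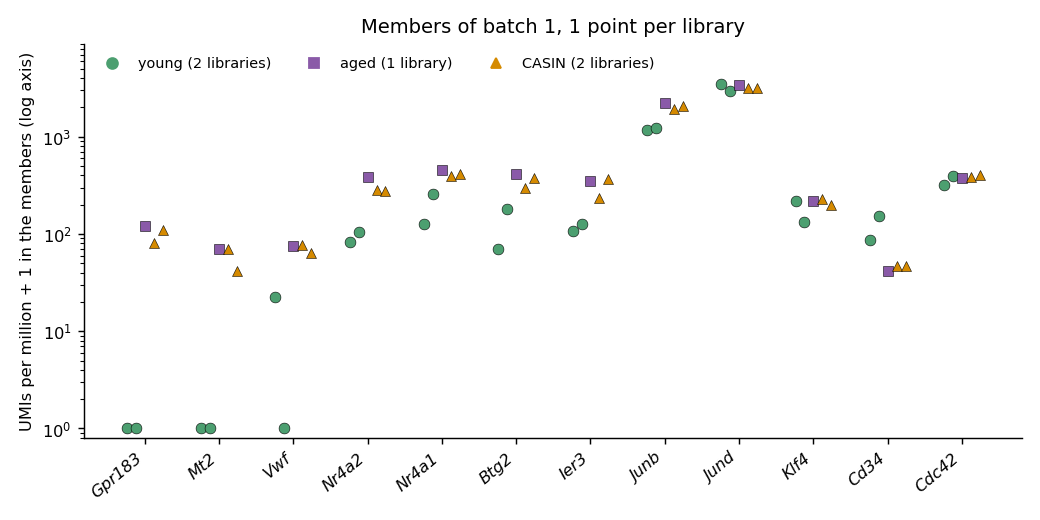
CPM plus 1 on a log axis in the members of batch 1 for 12 genes, 1 point per library. Gpr183, Mt2 and Nr4a2 separate the young libraries from the aged and CASIN ones, whereas Jund, Klf4 and Cdc42 do not.

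The plot of members by condition shows these genes together, and a last fit asked where members and the rest of the gate differed in their response to age or CASIN (edgeR quasi-likelihood test over 11111 genes, with library as a block). The cut on the 4 genes sets a lower bound for members and an upper bound for the rest, and the rest held more Fos in aged 1 than in young (2190 against 1569 and 1568 CPM). For genes that track the 4, immediate early genes above all, the fit is therefore not independent of the rule, and its values are a description. In aged over young 10 genes (0.09%) passed, 4 upward (0.036%) and 6 downward (0.054%), in CASIN over aged 1 (0.009%) and in CASIN over young 16 (0.144%), 6 upward (0.054%) and 10 downward (0.09%). DESeq2 called 0, 0 and 1 genes in the same order, and without young 1 edgeR called 1, 0 and 1. Ier3, an early-response regulator of survival, was at 108 and 125 CPM in young members, 348 CPM in aged 1 and 234 and 368 CPM in CASIN members, and 313, 345, 399, 278 and 339 CPM in the rest of the gate. Its aged over young difference was 1.70 in members (SE 0.25, edgeR adjusted p = 6.93e-09) and 0.32 in the rest (adjusted p = 0.153), and the difference between them was 1.39, given without its test since Ier3 is an immediate early gene. Young members held less Ier3 than the young rest of the gate, whereas aged and CASIN members were close to theirs.

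Jund, whose level rose with that of the 4 genes, had an aged over young difference of 0.18 in members and 0.69 in the rest, given without a test for that reason. Over the whole gate, Ier3 had 0.30 between aged and young (edgeR adjusted p = 0.208) in a fit in which 872 genes (7.89%) passed, 616 higher (5.57%) and 256 lower (2.32%) in aged. The count of 872 became 236 without aged 1, 443 with the replicate block and 0 with no batch term. The same whole-gate fit called 1500 genes (13.6%) between CASIN and young, 876 higher (7.93%) and 624 lower (5.65%). The count of 1500 became 690 without young 1, 761 without CASIN 3 and 13 with no batch term. Between CASIN and aged the whole-gate fit called 0 genes in edgeR and 0 in DESeq2, with 444 genes below 0.05 before adjustment in edgeR. With no filter on low counts edgeR called 61 genes, 27 higher and 34 lower, and without aged 1 it called 8. Nr4a2 (2.20, edgeR adjusted p = 0.000366), Nr4a1 (1.83, adjusted p = 0.00261), Btg2 (1.61, adjusted p = 0.00353) and Junb (1.47, adjusted p = 0.00137) were higher in aged than in young there as well, and the values within batch 1 and within batch 2 were 2.26 and 1.95 for Nr4a2, 1.60 and 1.87 for Nr4a1, 1.70 and 1.21 for Btg2, and 1.25 and 1.46 for Junb.

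Promoter letters were counted over the genes that divided the gate. Of 54 higher genes 44 matched a RefSeq promoter, giving 55 promoters, and of 92 lower genes 71 matched, giving 81. The AP-1 letters TGANTCA, searched on both strands, lay in 7 of the 55 (12.7%) and 2 of the 81 (2.47%), beside 4.63% of the 7928 promoters of genes with at least 10 CPM and 7.81% of all 32851. A CArG box lay in 4 of 55 (7.27%) and 0 of 81, beside 1.22% and 1.63%. The short element TGACG lay in 12 of 55 (21.8%) and 22 of 81 (27.2%), beside 33.6% and 20.8%, and the full element TGACGTCA, which contains the short one, in 2 (3.64%) and 3 (3.70%), beside 3.25% and 1.79%. The counts are small, no test was made, and a match of letters describes the window only.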

How the data were processed

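The authors deposited UMI counts per gene and barcode for 9 libraries, made with Cell Ranger 3.1.0 on mm10 per the submitters' processing notes. No column of these matrices lay outside the sample map (0 columns), and their tables hold no comparisons of the authors. Surface-protein libraries mentioned in the labels were not analysed here. Of 32387 barcodes, 15975 with 1000 to 40000 UMIs, at most 6000 genes and at most 10% mitochondrial UMIs were kept. Scrublet (scanpy 1.11.5) marked 92 of them (0.576%) as doublets, and these were kept.

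The members, the gene lists and the comparisons were chosen with earlier results of these data known. UMIs were summed per library over members, over the rest of the gate and over the whole gate, and scaled to CPM. Ratios of members to rest used a pseudocount of 1 CPM and a mean of at least 10 CPM. Conditions were tested with edgeR 4.0.16 (R 4.3.3, filterByExpr, TMM, quasi-likelihood F test, Benjamini-Hochberg adjustment at 0.05), with DESeq2 1.42.0 as an alternative. A fit of members over 9 libraries with batch as a term had been planned, but batch 2 held 3 members, so members were fitted on the 5 libraries of batch 1 with group alone, and the interaction with library as a block. The rule that a named gene change alike in both batches could therefore not be applied. Named genes were the 12 highest and 12 lowest ratios, up to 12 genes per condition comparison and per interaction by size of change among those called, and a fixed set of response, stem cell and cycle genes. List members named beyond that were chosen after their values were seen. A few of the named genes are not reported here.

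On simulated counts for CASIN over young, the fit of members recovered 7% of genes changed by a log2 of 1 and 63% at 2. For aged over young it recovered 14% and 65.7%. The interaction recovered 1% and 36%, and the whole gate for aged over young 82.7% and 100%. The simulation gave every gene the same fixed spread, no batch difference and no link between members and rest. Only genes above a minimum mean count were changed. The recoveries hold for that setting and do not measure what the fits could find in these libraries. Shares were compared by exact permutation tests (scipy 1.17.1), with Wilson intervals at 95% and 3 counts as the limit for a count of 0. Promoter sequences came from RefSeq. Other settings included the level of the cut, the doublets, the study's filter of 0.4 on the residual of genes on UMIs, a mitochondrial limit of 5%, the normalization and the libraries left out.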

Additional observations from a re-analysis of the deposited data

Results flagged for a closer look

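The difference between aged and young was not the same in members as in the rest of the gate for 10 genes (edgeR interaction test, members minus rest, log2). Both sets were cut by the level of Fos, Fosb, Jun and Egr1. For every gene that tracks that level the values are therefore a description and not an independent result. Such genes include the immediate early genes (here Ier3 and Jund, and for CASIN over young Atf3, Ier3, Jund, Klf2 and Klf6). Others differed across the cut too: in young 1, H2afy had 379 CPM in members and 968 CPM in the rest, and Ndufa4 447 and 787 CPM. The counts under DESeq2 and without young 1 are given above. The values were Myo1c at 3.21, Taok3 at −2.44, Id1 at −1.72, Ier3 at 1.39, Cltb at −1.38, AC160336.1 at −0.85, the histone variant gene H2afy at 0.76, the lymphotoxin gene Ltb at −0.70, Ndufa4 at 0.66 and Jund at −0.49. Myo1c rested on 62 UMIs in aged members and 3 in young ones. Taok3 had 14 and 118 UMIs in the members of young 1 and young 2, and without young 2 its difference was 0.17. Id1 had 142 and 6.96 CPM in the young members, and without young 1 its difference was 2.51.

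For CASIN over aged the single gene was Olfr1369-ps1, at −2.52. For CASIN over young the named genes were Dqx1 at 13.26, Exosc2 at 2.76, Taok3 at −2.48, Olfr1369-ps1 at −2.02, Atf3 at −1.73, Ier3 at 1.49, Cltb at −1.28, Sh3bgrl3 at 0.80, Jund at −0.72, Klf6 at −0.66, Ndufa4 at 0.63 and Klf2 at −0.62. Dqx1 had 12 UMIs in all members, 2 in CASIN 1 and 10 in CASIN 2, so its fitted value has no use as a fold. Olfr1369-ps1 had 211 and 20.9 CPM in the young members, and without young 1 its CASIN over young difference was 1.14.

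Outside the cells used, 64 barcodes over the mitochondrial limit met every other condition of the members, 59 of them in batch 1.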

How the results depend on the processing

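Limits: the members came almost wholly from batch 1, aged was 1 library there, and the young libraries held 24 and 15 members, so the depth of the young sums bounds what the fits could find. Fits without the batch term for members, and without the state by batch term for the interaction, were not run because no batch term was in those fits. The cause of the changes below was not tested.

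The share of members for aged minus young ran from −5.13 to 8.58 percentage points with each library left out, reversing at −5.13 without aged replicate 1. CASIN minus aged ran from 9.11 to 28.4, CASIN minus young from 13.02 to 32.3 and batch 1 minus batch 2 from 19.9 to 28.1. The counts of higher and lower genes in members were 169 and 217 against a rest below 40 per 10000 and 30 and 59 with a pseudocount of 5 CPM. They were 105 and 248 with a mean of at least 1 CPM, and 104 and 169 at a level of 120 per 10000. With each library left out they were 60 to 126 and 77 to 171, where the same sign was required in fewer libraries.

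For aged over young, CASIN over aged and CASIN over young, DESeq2 called 29, 0 and 50 genes in members, a level of 60 per 10000 gave 267, 3 and 315, and 7 libraries with a batch term, an alternative added after seeing the data, gave 82, 3 and 103. The level of 120 gave 48 for aged over young and 37 for CASIN over young, the 5% mitochondrial limit 3 for CASIN over aged and 103 for CASIN over young, and the fit on only the 2 groups compared 115 for CASIN over young. With each library left out the ranges were 0 to 99, 0 to 5 and 0 to 115, where without CASIN 1 all were 0 and without young 1 they were 6, 0 and 5. The interaction counts in the same order were 0, 0 and 1 in DESeq2, 6, 5 and 9 against a rest below 40, and 1 to 13, 0 to 2 and 1 to 16 with each library left out.

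Over the whole gate, using no filter on low counts gave 1385 genes for aged over young and 61 for CASIN over aged, and using no batch term gave 0 for aged over young and 13 for CASIN over young. With each library left out the ranges were 236 to 1096, 0 to 8 and 690 to 1712, and 6953 to 7833 for the batches.

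The samples share only a number: the deviations of young 1 and CASIN 1 from their group means correlated at 0.0393 over 3889 genes. With the replicate block the counts were 137, 6 and 176 genes in members, 15, 2 and 14 for the interaction, and 443, 0 and 1408 in the whole gate, with 3945 for the batches. Klf4 between batches was −1.09 with the block, and Cdc42 for CASIN over aged −0.051. Replicate 1 lay wholly in batch 1 and replicate 3 wholly in batch 2. In the whole gate the block and the batch term were therefore nearly confounded.

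Other reversed values were Jund aged over young −0.014 and Klf2 CASIN over young −0.40 at a level of 120, Cdc42 CASIN over aged −0.0028 at the 5% limit and −0.0059 to 0.071 without each CASIN library, negative without CASIN 2, and Klf2 aged over young in the whole gate −0.035 with no batch term. Between batches, with each library left out, Klf4 ran from −0.15 (without CASIN 3) to 0.45 and Nr4a1 from −0.30 to 0.13 (without aged 2). In the interaction Taok3 ran from −3.62 to 0.17 for aged over young and from −3.65 to 0.14 for CASIN over young (both positive without young 2), Id1 from −3.08 to 2.51 and Olfr1369-ps1 from −3.86 to 1.14 (both positive without young 1). Of the 1030 values of single genes in members under alternatives, 812 kept direction and side of the threshold, 203 lost significance, 10 gained it and 5 reversed.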
